A study of Ailuropoda melanoleuca with 25 samples.

Results

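The gene models evm.model.HIC_ASM_19.315, evm.model.HIC_ASM_19.327, evm.model.HIC_ASM_19.328 and evm.model.HIC_ASM_4.1759, written here without their common prefix, are 4 of the 22924 giant panda models measured. Each was at or near 0 in some libraries of fibroblasts or reprogrammed cells and well measured in others. They were chosen by identifier, with their levels in all 25 libraries known, for being at 0 in some PF or GPiPSC libraries. Levels in groups labelled PF or GPiPSC are therefore described below without a test. HIC_ASM_19.315 and HIC_ASM_19.327 have the same length, 522 bases, and their estimated counts were also summed. HIC_ASM_19.328 is 2031 bases long and HIC_ASM_4.1759 is 1719 bases long. The tables do not pair the models with gene names, so what the 4 models encode is not stated here.

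The study reprogrammed giant panda cells to induced pluripotent stem cells (GPiPSCs) with episomal vectors, which carry the reprogramming factors without being built into the genome. RNA-seq was run on 25 libraries in 12 groups, and every library is labelled as primary fibroblast cells at source. LB GPiPSC holds 3 libraries and each of the other 11 groups holds 2. The groups are PF and GPiPSC, each with an LB and an XR set, then stage I at day 8 and day 24, stage II at day 8, and a control and A83-01 at day 16. A further 3 groups carry the word BACL, namely BACL LB GPiPSC, a control and one with CHIR99021. PF is read here only as a label on fibroblast libraries, and the labels do not spell out LB, XR or BACL. Neither LB nor XR is named for the stage and day 16 groups or for the last pair of BACL groups. A83-01 is an inhibitor of the TGF-β type I receptor, and CHIR99021 is an inhibitor of the kinase GSK3. No label says whether the replicates came from separate cultures, so p-values rest on the spread among libraries of a group, and that spread may be technical.

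Episomal reprogramming turns a fibroblast, a connective tissue cell, into a cell that can form all tissues, and it silences many fibroblast genes on the way. RNA of a gene is then found in one cell state and not in the other. A pseudoaligner such as kallisto, which made these tables, does not place a read at 1 position. It lists the transcripts that a read fits and divides reads that fit several of them by iteration. The division of reads that near-identical models share is therefore an estimate, and an estimated count that is not whole arises when a read was shared.

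Estimated counts summed to between 8627983 and 14890260 per library. Levels are CPM values, estimated counts scaled to the library total by the TMM method, with TMM factors from 0.622 to 1.33. A model was called at the floor in a library at 3 estimated counts or fewer, which is between 0.176 and 0.376 CPM in these libraries, and present at 10 CPM or more. The floor covers counting error only. Of all 22924 models, 2190 (9.55%) were at the floor in at least 1 library and present in another. Markers of cell type could not be looked up without gene names, so the labelled cell types were not checked. Libraries with the same label were not always alike over all models. LB GPiPSC replicate 3 correlated at 0.962 with each other LB GPiPSC replicate and at 0.981 with each XR GPiPSC replicate (Pearson's r of log2 CPM). LB PF replicate 2 correlated at 0.944 with LB PF replicate 1 and at 0.931 and 0.901 with the XR PF replicates. Among the PF libraries it was thus closest to the one of its own label. LB PF replicate 1 correlated at 0.951 and 0.924 with the XR PF replicates. The members divided the libraries in both of these groups.

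HIC_ASM_19.315 was measured in PF and in reprogramming libraries and was at the floor in a set of 7 libraries. In LB PF it had 354.9 and 591 estimated counts (29.1 and 71.6 CPM), and in XR PF 663 and 1205 (53.6 and 112 CPM). In LB GPiPSC replicates 1, 2 and 3 it had 433.5, 384.3 and 0 estimated counts (28.1, 23.9 and 0 CPM). Both XR GPiPSC libraries had 0. The model was thus present in 2 of the 5 LB and XR GPiPSC libraries. As a description of the values that chose it, its mean in XR PF was at least 438.6-fold higher than the floor of XR GPiPSC. The equal-length HIC_ASM_19.327 had 0 in XR PF and 719 and 826 estimated counts in XR GPiPSC. The sum of both models had means of 82.7 ± 41.2 CPM (SD, n = 2) in XR PF and 48.5 ± 3.13 CPM (SD, n = 2) in XR GPiPSC. How the division of shared reads bears on this fold was not tested. In bulk RNA, fewer cells of a type and less RNA per cell cannot be told apart.

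In the 16 libraries outside LB PF, LB GPiPSC, XR PF and XR GPiPSC, HIC_ASM_19.315 was present in 12. It had 183 and 137 CPM at stage I day 8, 180 and 81.9 CPM at stage I day 24 and 188 and 221 CPM at stage II day 8. The day 16 controls had 54.6 and 61.2 CPM, and the A83-01 libraries 59.0 and 82.7 CPM. Every day 16 library was below every stage II library, while stage I day 24 spanned a wide range in CPM. The TMM factors of the stage I day 24 libraries were 0.714 and 1.05. In TPM, which divides counts by effective length, they were closer, at 192 and 166. BACL LB GPiPSC libraries had 25.7 and 27.2 CPM, both BACL controls had 0 and the BACL-CHIR99021 libraries had 0.0979 and 0 CPM. The floor libraries were therefore LB GPiPSC replicate 3 and all libraries of XR GPiPSC, BACL control and BACL-CHIR99021. In order of group mean, stage II day 8 (204.7 ± 23.0 CPM, SD, n = 2) stood above stage I day 8 (159.9 ± 31.9 CPM, SD, n = 2) without overlap. From stage I day 8 down to LB PF each pair of neighbouring groups overlapped, and LB PF did not overlap BACL LB GPiPSC (26.5 ± 1.06 CPM, SD, n = 2).

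HIC_ASM_4.1759, on another scaffold, was at the floor in the same 7 libraries and in no other. It had 30.8 and 6.79 CPM in LB PF, 30.8 and 52.7 CPM in XR PF, and 26.0, 33.2 and 0 CPM in LB GPiPSC replicates 1, 2 and 3. XR GPiPSC libraries had 0 of it, against which the XR PF mean was at least 221-fold higher, again a description of the values that chose the model. Its estimated counts were whole in all 25 libraries (tolerance 0.01), as were those of 21226 models (92.6%). The BACL LB GPiPSC libraries had 35.0 and 33.1 CPM, the BACL controls 0 and 0, and the BACL-CHIR99021 libraries 0.127 and 0.117 CPM from 2 estimated counts each. HIC_ASM_19.315 and HIC_ASM_4.1759 thus shared their floor state in 25 of 25 libraries, and their levels correlated at r = 0.92 over the 25 libraries (log2(CPM + 1)). That value is a description over libraries that share groups, and no test was made of it.

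**Figure D1:**
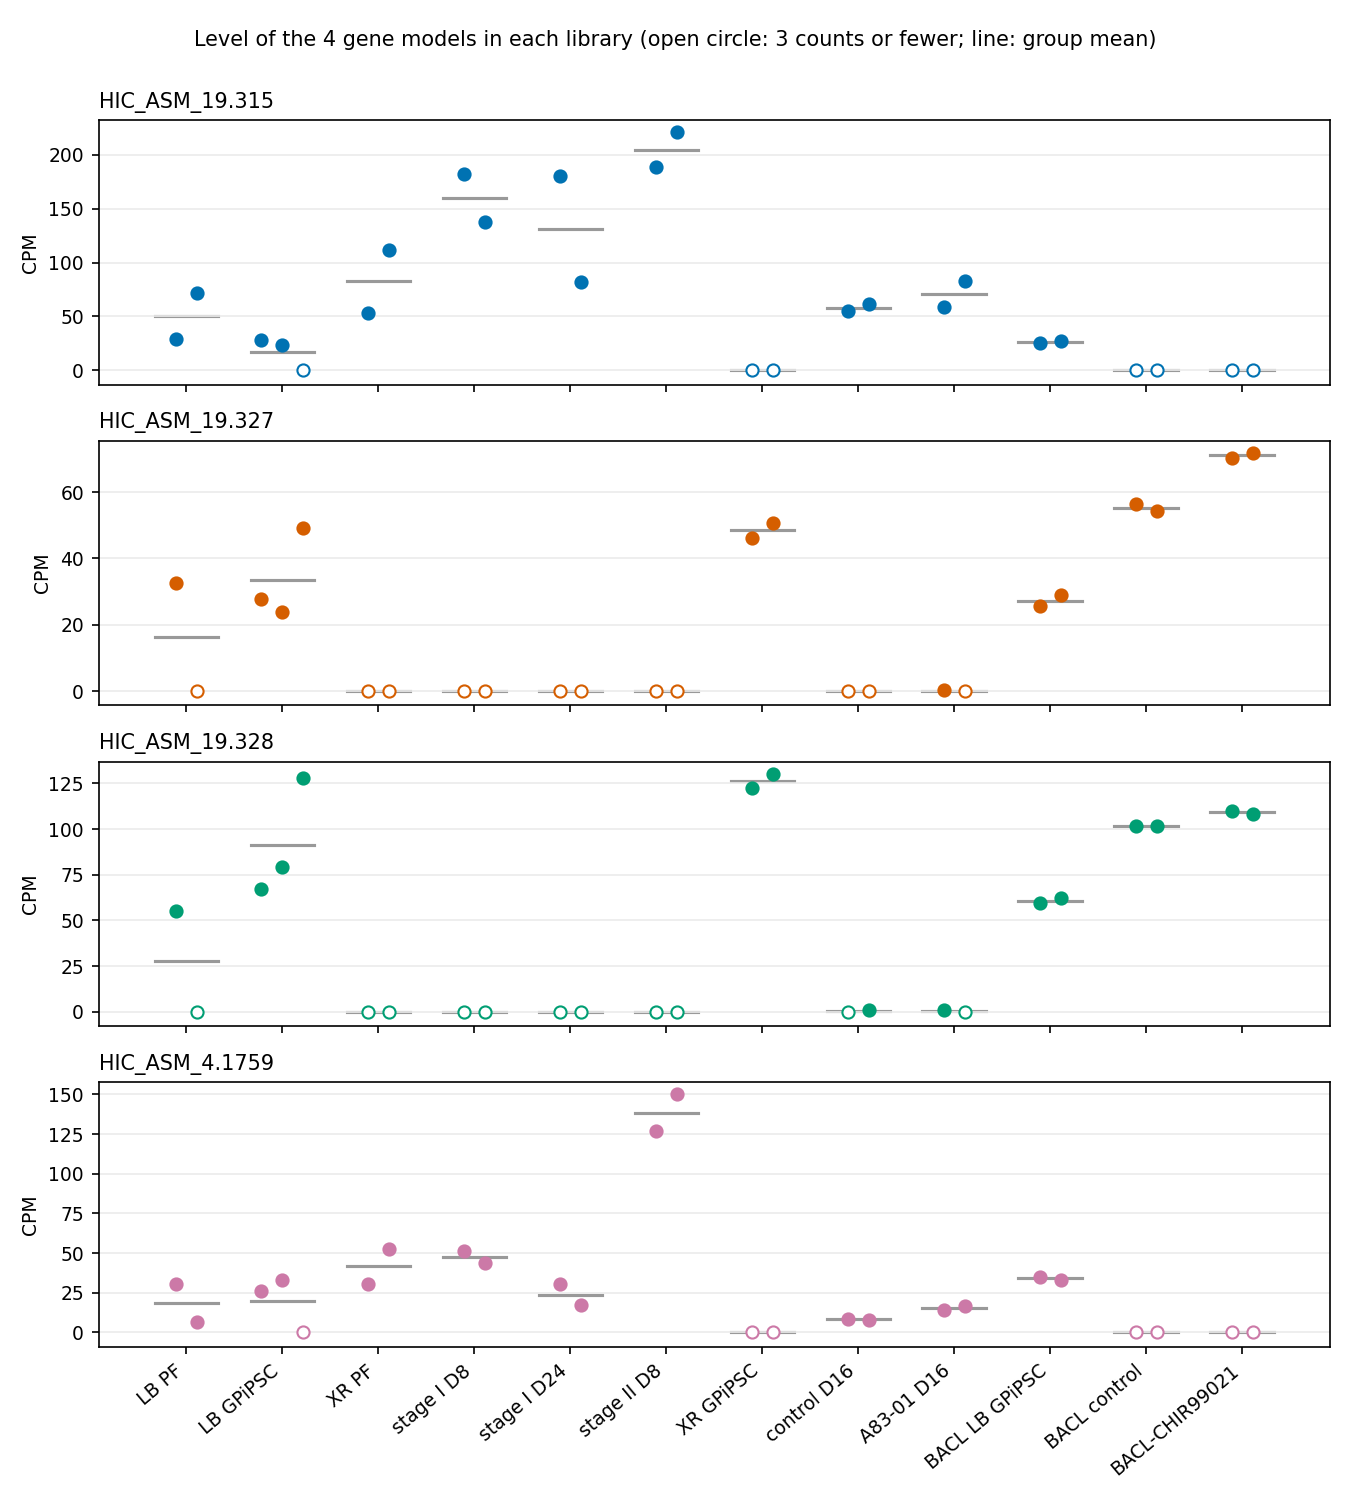
TMM-scaled CPM of each of the 4 models (y axes, 1 panel per model) in each library (points), by group (x axis), with open circles for libraries at 3 estimated counts or fewer. HIC_ASM_19.315 and HIC_ASM_4.1759 are at the floor in the same 7 libraries, while HIC_ASM_19.327 and HIC_ASM_19.328 are present in those 7 and at 1.03 CPM or less in 13 others.

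During reprogramming HIC_ASM_4.1759 ran over a wide range. Stage I day 8 libraries had 51.6 and 43.8 CPM, stage I day 24 libraries 30.5 and 17.0 CPM, and stage II day 8 libraries 127 and 150 CPM. The day 16 controls had 8.16 and 8.12 CPM and the A83-01 libraries 14.2 and 16.5 CPM. Stage II day 8 (138.5 ± 16.4 CPM, SD, n = 2) was the highest of the 12 groups, and none of its libraries overlapped those of stage I day 8 (47.7 ± 5.51 CPM, SD, n = 2). At the low end, A83-01 (15.4 ± 1.59 CPM, SD, n = 2), the day 16 control (8.14 ± 0.0236 CPM, SD, n = 2) and BACL-CHIR99021 (0.122 ± 0.00666 CPM, SD, n = 2) did not overlap one another. Between stage I day 24 and LB PF the neighbouring groups overlapped.

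HIC_ASM_19.327 had the reverse distribution. It was at 397.1 and 0 estimated counts in LB PF (32.6 and 0 CPM), at 0 in XR PF, and at 27.8, 23.8 and 49.1 CPM in LB GPiPSC replicates 1, 2 and 3. XR GPiPSC libraries had 46.3 and 50.7 CPM. No library labelled GPiPSC was without it, so the description of models switched off in some GPiPSC libraries holds for HIC_ASM_19.315 and HIC_ASM_4.1759 and not for HIC_ASM_19.327 or HIC_ASM_19.328. All 6 stage I and stage II libraries had 0 of HIC_ASM_19.327. The day 16 controls had 0.153 and 0 CPM and the A83-01 libraries 0.235 and 0 CPM. It was present in all 6 BACL libraries, at 25.6 and 28.9 CPM in BACL LB GPiPSC, 56.3 and 54.3 CPM in BACL control and 70.4 and 71.9 CPM in BACL-CHIR99021. In order of group mean, BACL-CHIR99021 (71.1 ± 1.04 CPM, SD, n = 2), BACL control (55.3 ± 1.43 CPM, SD, n = 2) and XR GPiPSC (48.5 ± 3.13 CPM, SD, n = 2) did not overlap, and from XR GPiPSC down to LB PF the neighbouring groups did.

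HIC_ASM_19.328 followed HIC_ASM_19.327. It had 671.5 and 0 estimated counts in LB PF (55.1 and 0 CPM), 66.9, 79.0 and 128 CPM in LB GPiPSC replicates 1, 2 and 3, and 122 and 130 CPM in XR GPiPSC. It was at the floor in both XR PF libraries and in all 6 stage I and stage II libraries. The day 16 libraries ranged from 0 to 1.03 CPM. BACL LB GPiPSC libraries had 59.6 and 62.1 CPM, BACL controls 101 and 101 CPM, and BACL-CHIR99021 libraries 110 and 108 CPM. The model was at the floor in 11 libraries and HIC_ASM_19.327 in 12, and their floor states were equal in 24 of 25, with r = 0.99 between their levels. XR GPiPSC (126 ± 5.75 CPM, SD, n = 2) had the highest mean, and LB GPiPSC replicate 3 lay within its range. BACL control also overlapped LB GPiPSC. As a description of the values that chose them, the XR GPiPSC means were at least 186-fold (HIC_ASM_19.327) and at least about 485-fold (HIC_ASM_19.328) above the floor of XR PF. The sum of HIC_ASM_19.327 with HIC_ASM_19.315 had means of 82.7 CPM in XR PF and 48.5 CPM in XR GPiPSC. That of HIC_ASM_19.328 with HIC_ASM_19.316, an equal-length model described below, had 136 and 127 CPM. How the division of shared reads bears on these folds was not tested. HIC_ASM_19.315 correlated negatively with HIC_ASM_19.327 (r = -0.87) and HIC_ASM_19.328 (r = -0.86), again as a description. HIC_ASM_4.1759 did so less strongly, with r = -0.66 and r = -0.64.

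The sum of HIC_ASM_19.315 and HIC_ASM_19.327 did not show the floor state. Together the 2 models were present in all 25 libraries, with a lowest value of 46.3, a median of 61.2 and a highest of 221 CPM, a 4.78-fold range. In LB GPiPSC replicates 1, 2 and 3 the sum was 862, 767 and 765 estimated counts, although HIC_ASM_19.315 was at 0 in replicate 3. Per length, the sum had between 119 and 249 TPM, a scale that divides counts by effective length, with a median of 151. The estimated counts of each model were not whole in 8 libraries, while the sum was whole in 25 of 25 (tolerance 0.01).

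The share of the sum given to HIC_ASM_19.315 fell into 3 ranges. It was 99.6% or more in 13 libraries, 0.139% or less in 7, and between 47.2% and 50.3% in 5. The 5 libraries near equal shares were LB PF replicate 1, LB GPiPSC replicates 1 and 2 and both BACL LB GPiPSC libraries. The 7 at the low end were those in which HIC_ASM_19.315 was at the floor. All libraries of stage I, stage II, day 16 and XR PF, and LB PF replicate 2, had the high share. The effective lengths of the 2 models, over which the pseudoaligner spreads the reads, were equal in 19 libraries and different in 6. How the division of shared reads bears on these shares was not tested. Of the other models of 522 bases on the scaffold, HIC_ASM_19.91 was at 0 in all 25 libraries and HIC_ASM_19.150 reached 2.59 CPM at most.

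**Figure D2:**
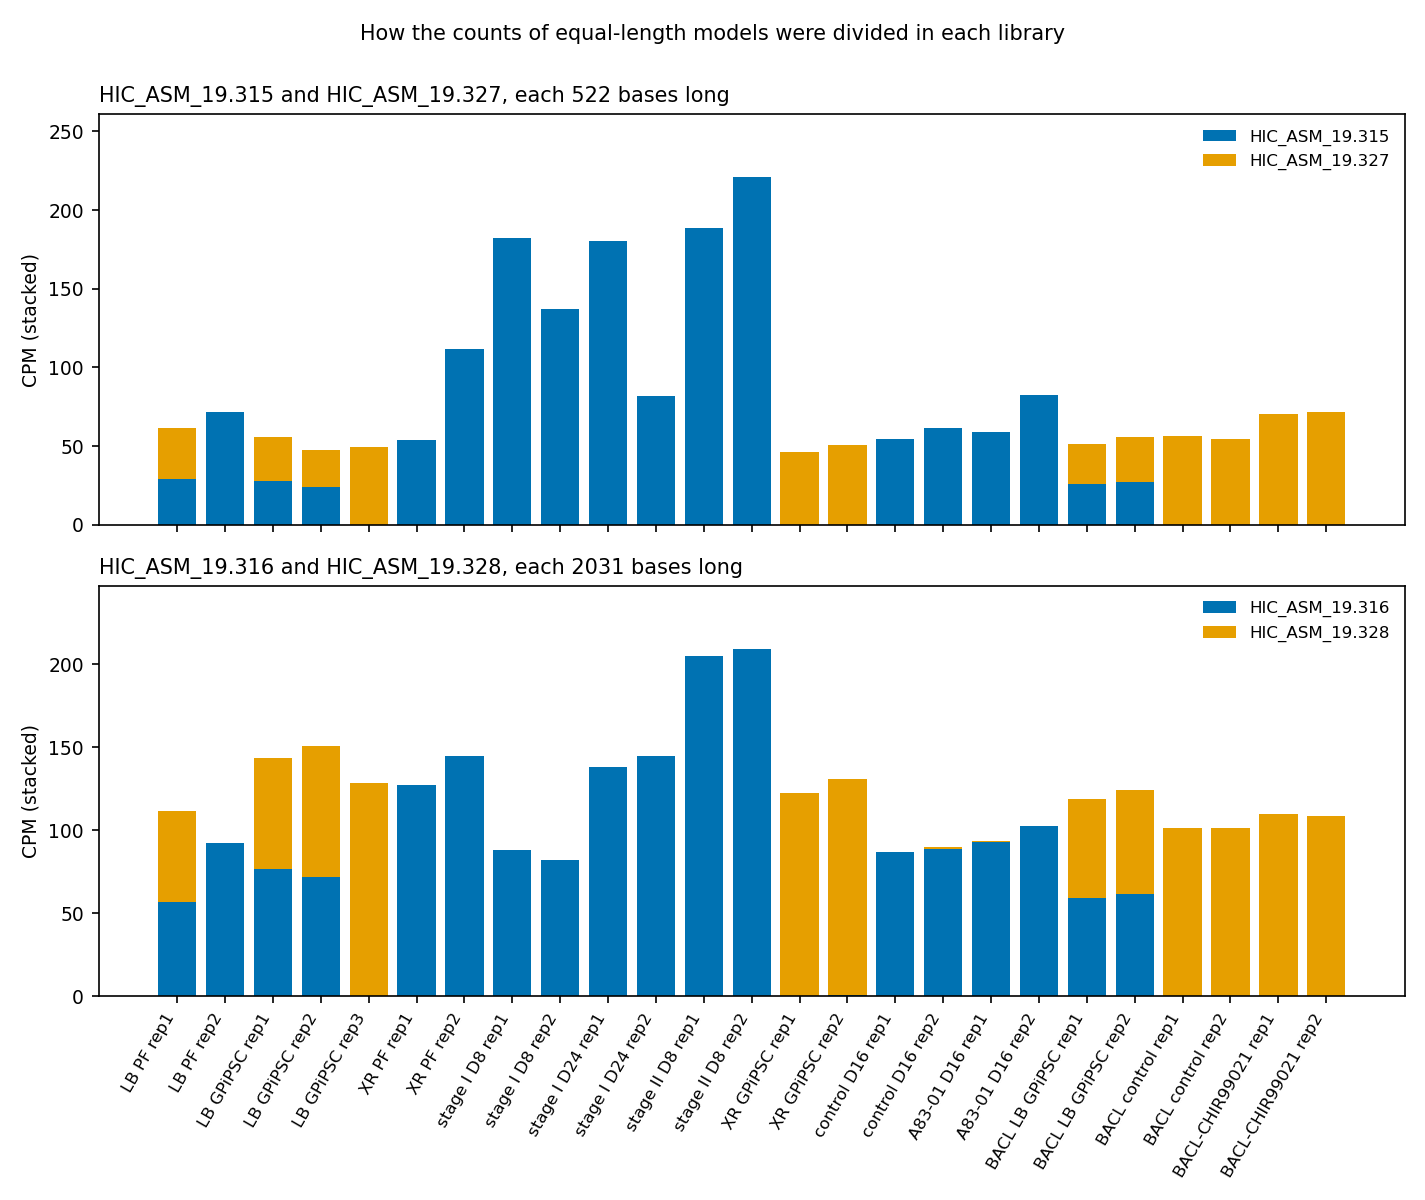
TMM-scaled CPM (y axis) of the equal-length pairs HIC_ASM_19.315 and HIC_ASM_19.327 (upper panel) and HIC_ASM_19.316 and HIC_ASM_19.328 (lower panel), stacked, in each of the 25 libraries (x axis). The stacked height never falls under 46.3 CPM in the upper panel or 82.1 CPM in the lower, while the part of the first model goes from nearly all to nearly none.

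HIC_ASM_19.328 has a partner of the same kind. HIC_ASM_19.316, the next model after HIC_ASM_19.315, has 2031 bases as HIC_ASM_19.328 does. The pairing was noticed after the values were seen. Their sum was whole in 25 of 25 libraries and ran from 82.1 through a median of 119 to 209 CPM, a 2.55-fold range. Per length it was lower than the first sum in every library, at 16.7 to 52.8 TPM. HIC_ASM_19.316 took 98.9% or more of the sum in 13 libraries, 0.446% or less in 7 and 47.5% to 53.5% in 5. Both pairs were in the same range in 25 of 25 libraries.

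The 2 pairs lie in a stretch of 7 equal-length pairs on scaffold HIC_ASM_19, whose model numbers differ by 12 or 13. The pair HIC_ASM_19.318 and HIC_ASM_19.330 (888 bases) had equal estimated counts in all 25 libraries, a share of 50.0%. HIC_ASM_19.317, of 2943 bases, took 30.5% to 59.9% of its sum with HIC_ASM_19.329 in the 13 libraries with a high share of HIC_ASM_19.315 and 0.655% or less in the other 12. HIC_ASM_19.320, of 837 bases, took 51.1% to 68.2% of its sum with HIC_ASM_19.332 in the 7 libraries without HIC_ASM_19.315 and 99.5% or more in the rest. HIC_ASM_19.311, of 921 bases, took 22.6% to 29.6% of its sum with HIC_ASM_19.324 in the 12 libraries. In the 13 it took 0.677% or less, apart from LB PF replicate 2 at 54.4%. HIC_ASM_19.312, of 5082 bases, took 77.7% to 94.4% in the 13 libraries, 52.9% to 59.5% in the 7 and 30.9% to 37.6% in the 5. None of these 3 ranges overlapped. Of these 7 pairs, the 2 that hold members were the ones in which each model was at the floor in a library where the other was present.

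**Figure D3:**
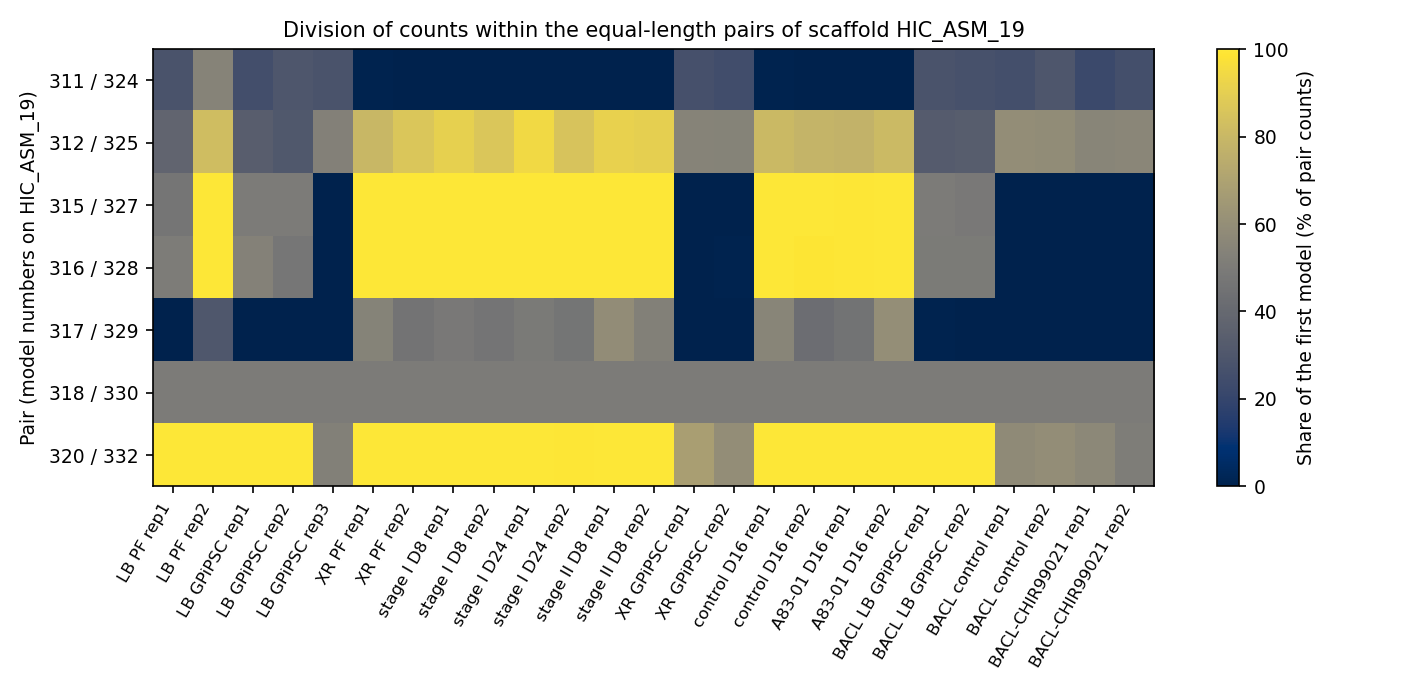
Percent of the summed estimated counts of a pair that the first model took (colour, 0 to 100), for the 7 equal-length pairs of scaffold HIC_ASM_19 (rows of the map) in the 25 libraries (columns). The pairs of HIC_ASM_19.315 and HIC_ASM_19.316 change together, and HIC_ASM_19.318 stays at 50.0% throughout.

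The models numbered within 3 of a member on HIC_ASM_19 were not generally at the floor. HIC_ASM_19.312, HIC_ASM_19.313, HIC_ASM_19.314, HIC_ASM_19.324, HIC_ASM_19.325 and HIC_ASM_19.329 were each present in 25 of 25 libraries. Among these, HIC_ASM_19.314, just before HIC_ASM_19.315, was lowest in the 7 floor libraries of HIC_ASM_19.315. It had 11.3 to 24.2 CPM there and 48.8 to 363 CPM in the rest. HIC_ASM_19.326, just before HIC_ASM_19.327, was present in 12 and ran from 0.383 to 113 CPM without a library at the floor. HIC_ASM_19.317 was at the floor in 11 libraries, and HIC_ASM_19.318 and HIC_ASM_19.330 stayed between 1.03 and 19.9 CPM.

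Such an exchange was uncommon among models of equal length. Over all scaffolds, 482 pairs had the same length and numbers within 20 of each other, and either model was present in 235 of them. In 143, 1 model was at the floor in a library where the other was present. In 3 of the 482 pairs (0.622%) each model was at the floor where the other was present, and 2 of the 3 are the pairs just described, which led to the count being made. The third was HIC_ASM_0.9.1 with HIC_ASM_0.13 (1476 bases), in which HIC_ASM_0.9.1 was at the floor in LB GPiPSC replicate 3 and both libraries each of BACL control and BACL-CHIR99021. In XR GPiPSC it was at 0 and 0.423 CPM, and HIC_ASM_0.13 was at 0 in LB GPiPSC replicate 2.

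A floor state beside presence within 1 group of replicates was rare over all models. It was seen for 43 of 22924 models (0.188%), of which 25 were in LB GPiPSC, 17 in LB PF, 1 in stage I day 24 and 1 in XR GPiPSC, with 1 model counted in both LB groups. The other 8 groups had none. HIC_ASM_19.315 and HIC_ASM_4.1759 were among those of LB GPiPSC, and HIC_ASM_19.327 and HIC_ASM_19.328 among those of LB PF, as the choice of members fixed. Of the 43, 5 were on HIC_ASM_19, namely HIC_ASM_19.315, HIC_ASM_19.316, HIC_ASM_19.327, HIC_ASM_19.328 and HIC_ASM_19.332. All but HIC_ASM_19.316 and HIC_ASM_19.332 are members. The share of all models that lies on this scaffold was not worked out, so nothing is read from that count. The floor libraries of HIC_ASM_19.315 were shared exactly by 6 other models, among them HIC_ASM_4.1759 and HIC_ASM_14.607, which reached 1513 CPM elsewhere. Others of the 6 were low. HIC_ASM_15.325 and HIC_ASM_8.3 reached 3.21 and 9.81 CPM at most and were present in no library, and HIC_ASM_13.1557 was present in 1. In 8 models the state was the opposite one.

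The models whose levels were most like those of a member were found by Pearson's r of log2(CPM + 1) over the 25 libraries, among 17221 models. For HIC_ASM_19.315 they were HIC_ASM_19.316 (r = 0.98) and HIC_ASM_3.1061 (r = 0.97), and the least like was HIC_ASM_4.1228 (r = -0.95). HIC_ASM_4.1228 had 14.0 CPM or more in each of the 7 floor libraries of HIC_ASM_19.315 and 0 or nearly 0 in the rest. HIC_ASM_19.327 and HIC_ASM_19.328 were both most like HIC_ASM_19.326 (r = 0.99 for each) and least like HIC_ASM_19.317 (r = -0.97 for each). Their next likest models were HIC_ASM_14.1141 (r = 0.95) and HIC_ASM_7.534 (r = 0.95). For HIC_ASM_4.1759 they were HIC_ASM_0.2110 (r = 0.95) and HIC_ASM_0.9.1 (r = 0.93), with HIC_ASM_17.692 at the other end (r = -0.92). HIC_ASM_0.2110 was not at the floor anywhere, since it had at least 37.7 CPM in every library. HIC_ASM_4.1760, the only model numbered within 3 of HIC_ASM_4.1759, reached 9.94 CPM at most and was at the floor in 9 libraries.

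Comparisons between groups were fitted with all 25 libraries, and 17225 models, the 4 members among them, passed the filter on low counts. BACL control against BACL LB GPiPSC sets a GPiPSC group against another group, and being at 0 in some such libraries is what the members were chosen for. The single members are therefore described there without a p-value. HIC_ASM_19.315 was at 0 in both BACL controls, and the BACL LB GPiPSC mean was at least 142-fold higher than their floor. For HIC_ASM_4.1759, at 0 in the same 2 libraries, the mean was at least 182.6-fold higher. In this comparison 4.45% of all models were called, and 1.55% were called lower. Calls of single members are not given there, since the choice of members bears on them.

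HIC_ASM_19.327 and HIC_ASM_19.328 were higher in both BACL controls than in both BACL LB GPiPSC libraries, by 1.02 ± 0.96 and 0.74 ± 1.06 (log2 difference, SE). The sum of HIC_ASM_19.315 and HIC_ASM_19.327 was 53.7 ± 3.36 CPM (SD, n = 2) in BACL LB GPiPSC and 55.3 ± 1.43 CPM (SD, n = 2) in BACL control. Its log2 difference was 0.04 ± 0.32 (SE). No p-value is given for the sum there either, since it is built from members chosen for being at 0 in some such libraries. The other 5 comparisons hold no group labelled PF or GPiPSC. For the CHIR99021 question, BACL-CHIR99021 against BACL control, 0 of the 4 members were called, beside 16.1% of all models. HIC_ASM_19.327 differed by 0.36 ± 0.94 (log2, SE, edgeR adjusted p = 0.871) and HIC_ASM_19.328 by 0.11 ± 1.05 (log2, SE, edgeR adjusted p = 0.987). At an unadjusted p under 0.05 the count was 0 too, and DESeq2 and limma called 0.

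The 3 reprogramming steps and the A83-01 comparison also gave 0 called members by edgeR. Over all models, 32.5% were called between stage I day 24 and day 8, 31.7% between stage II day 8 and stage I day 24, 43.3% between the day 16 control and stage I day 8, and 6.22% between A83-01 and the day 16 control. At an unadjusted p under 0.05, HIC_ASM_4.1759 was the 1 member in the stage II comparison and in the control comparison, and there was none in the other 2. DESeq2 called 2 members between control and stage I day 8, beside 45.8% of all models, namely HIC_ASM_19.327 and HIC_ASM_19.328, which are at or near the floor on both sides, and limma on TPM called 0 in all 4 comparisons.

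HIC_ASM_4.1759 was higher by 2.55 ± 1.07 (log2, SE) at stage II day 8 than at stage I day 24, with an edgeR adjusted p of 0.0772. Its SE in the fit of all libraries holds the spread of LB GPiPSC and LB PF, where replicates ran from 0 to 33.2 CPM. In the 16 libraries of the other groups alone the difference was 2.57 ± 0.25 (edgeR adjusted p = 1.38e-05), and over 11 alternatives (7 settings, and each of the 4 libraries compared left out) the adjusted p ran from 1.38e-05 to 0.334. Against stage I day 8, the day 16 control was lower by a log2 difference of -2.55 ± 1.09 (SE, edgeR adjusted p = 0.0682), or -2.55 ± 0.25 (SE, edgeR adjusted p = 2.78e-05) in the 16 libraries, with a range of 2.78e-05 to 0.325. Between stage I day 24 and day 8 it was -1.01 ± 1.03 (SE, edgeR adjusted p = 0.488), or -1.08 ± 0.24 (SE, edgeR adjusted p = 0.00306) in the 16 libraries. With A83-01 it was 0.91 ± 1.06 (SE, edgeR adjusted p = 0.830), or 0.87 ± 0.25 (SE, edgeR adjusted p = 0.0426) in the 16. The direction of each of these 4 differences was the same under every alternative run. The fit of the 16 libraries called more of all models too, between 11.4% (A83-01) and 54.9% (control against stage I day 8) in these 4 comparisons. It leaves out the groups on which the member was chosen, and with them the spread among the LB replicates. The choice was made with the levels in all libraries known. The adjusted p-values of that fit therefore show only how the calls depend on the libraries fitted.

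HIC_ASM_19.315 had smaller differences relative to its SE. Its log2 difference was -0.29 ± 0.96 between stage I day 24 and day 8 (SE, edgeR adjusted p = 0.852), and 0.64 ± 0.96 between stage II day 8 and stage I day 24 (SE, edgeR adjusted p = 0.638). The day 16 control was lower than stage I day 8 by -1.47 ± 0.98 (log2, SE, edgeR adjusted p = 0.237), or -1.47 ± 0.33 in the 16 libraries (SE, edgeR adjusted p = 0.00344). The limit given above for the fit of the 16 libraries holds here too. A83-01 differed from the control by 0.29 ± 0.97 (log2, SE, edgeR adjusted p = 0.972).

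The SEs of the sums were smaller. The sum of HIC_ASM_19.315 and HIC_ASM_19.327 fell in the day 16 control against stage I day 8 by a log2 difference of -1.46 ± 0.33 (SE, edgeR adjusted p = 0.00275), and it was called under all 11 alternatives, with adjusted p between 7.00e-05 and 0.0437. Its size depended on the setting, with log2 differences from -1.65 to -0.668 over these alternatives. In TPM the sum had a mean of 131.7 in the day 16 control and 210.2 at stage I day 8. On log2(TPM + 1) the median of all models was higher by 0.45 in that comparison. Between stage I day 24 and day 8 the difference of the sum was -0.29 ± 0.32 (SE, edgeR adjusted p = 0.532), and between stage II day 8 and stage I day 24 it was 0.64 ± 0.32 (SE, edgeR adjusted p = 0.134). Leaving out stage I day 24 replicate 1 gave a call in both, with -0.96 (edgeR adjusted p = 0.0367) and 1.32 (edgeR adjusted p = 0.00585). A83-01 differed from the control by 0.29 ± 0.32 (SE, edgeR adjusted p = 0.818), and BACL-CHIR99021 from BACL control by 0.36 ± 0.32 (SE, edgeR adjusted p = 0.516). Among the comparisons without a group labelled PF or GPiPSC, the sum was called in 1, in which 43.3% of all models were called.

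The sum of HIC_ASM_19.316 and HIC_ASM_19.328, chosen after its values were seen, was called in 2 of the comparisons without such a group. In those 2, 32.5% and 31.7% of all models were called. It rose between stage I day 8 and day 24 by 0.73 ± 0.17 (log2, SE, edgeR adjusted p = 0.00291), under all 11 alternatives. It rose again to stage II day 8 by 0.55 ± 0.17 (log2, SE, edgeR adjusted p = 0.0206), a call lost without the filter (edgeR adjusted p = 0.0545), on TPM (limma adjusted p = 0.495 and 0.480) and on leaving out any of 4 libraries, those of the 2 groups compared (edgeR adjusted p of 0.0526 to 0.105). It differed little between control and stage I day 8 by counts (0.05, edgeR adjusted p = 0.825), and on TPM the difference was 0.71 (limma adjusted p = 0.0255), where the median of all models moved by 0.45. A83-01 and BACL-CHIR99021 gave 0.15 and 0.11 against their controls (log2, edgeR adjusted p = 0.822 and 0.759). BACL control against BACL LB GPiPSC gave -0.26 (log2), again without a p-value.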

How the data were processed

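RNA-seq libraries from 25 samples were analysed. The submitters' processing notes name kallisto. Not given in the sources used here are its version, its index and the build of the genome. Each deposited table lists for every model its estimated count and TPM beside 2 lengths, full and effective, per the file headers. The RefSeq gene table (assembly ASM200744v3) holds none of the 22924 identifiers. The members and lists were chosen with earlier results of these data known.

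The authors' estimated counts, which need not be whole, were rounded for the tests. All 25 libraries, grouped by title, were fitted together as 12 groups, which leaves 13 residual degrees of freedom. filterByExpr kept 17225 models and TMM scaled the libraries. Tests were edgeR's quasi-likelihood F tests (edgeR 4.0.16, R 4.3.3), with Benjamini-Hochberg adjustment across the whole table and calls at an adjusted p under 0.05. The SE given with an edgeR log2 difference was worked back from its test. It is the absolute log2 difference divided by the square root of F. The TPM values deposited by the authors served for levels per length and for limma 3.58.1 on log2(TPM + 1) and log2(TPM + 0.1). A fold against libraries at 0 is a bound from 3 counts per library. Totals of 8627983 to 14890260 put that floor at 0.176 to 0.376 CPM.

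Beside the 4 members, named models were the 2 most and the 1 least correlated with each member, the models numbered within 3 of one, and models of 522 bases on the scaffold of HIC_ASM_19.315. Other models named were chosen after their values were seen, including HIC_ASM_19.316 and the pairs around it. Other settings tried were DESeq2 1.42.0, RLE size factors, all models unfiltered, the 16 libraries outside LB PF, LB GPiPSC, XR PF and XR GPiPSC alone, a replicate block, limma, and each of those 16 libraries left out in turn. The fits were tested on simulated data.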

Additional observations from a re-analysis of the deposited data

How the results depend on the processing

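Counts of called members moved most with the set of libraries fitted. With the 16 libraries outside LB PF, LB GPiPSC, XR PF and XR GPiPSC alone, 1 of the 4 members was called for stage I day 24 against day 8 (beside 42.6% of all models in that fit), 1 for stage II day 8 (44.1%), 2 for the day 16 control (54.9%) and 1 for A83-01 (11.4%), each against 0 in the fit of all libraries. DESeq2 called 2 for the control comparison (45.8%). No label ties replicate numbers to a shared batch. Deviations of same-numbered libraries correlated at 0.56 for stage I day 24 with day 8, -0.42 for stage II day 8 with stage I day 24 and between -0.00 and 0.09 in the other 4 comparisons, so the numbers were not taken as a pairing. A replicate block gave 1 called member for stage II day 8 (30.8% of all models) and 2 for the control (42.2%), and moved the count over all models from 767 to 912 for BACL control against BACL LB GPiPSC. Leaving out libraries gave 0 to 2 members in that comparison, 1 to 3 comparisons called for the sum of HIC_ASM_19.315 and HIC_ASM_19.327, and 1 to 2 for the sum of HIC_ASM_19.316 and HIC_ASM_19.328. Each fit with a library left out leaves 1 library in a group. For BACL control against BACL LB GPiPSC such fits also called fewer of all models, as given below. In the other comparisons calls over all models fell too, except for stage II day 8 without stage I D24 replicate 1, where they rose. Whether members or sums changed beyond this was not tested. On TPM with limma the first sum was called in 2 comparisons with either pseudocount, the further one being BACL-CHIR99021 against BACL control (0.61, adjusted p = 0.0224). Without the filter the second sum was called in 1. The 43 models with both states within 1 group became 25 with a floor of 0 counts and 113 with presence at 5 CPM. Signs turned in differences that were not called in the fit of all libraries: with libraries left out, HIC_ASM_19.315 and its sum ran from -0.958 to 0.0801 (log2) between stage I day 24 and day 8, the highest without stage I D24 replicate 2. For BACL control against BACL LB GPiPSC the first sum ran from -0.0221 to 0.105, and was at -0.0771 and -0.0776 on TPM with limma. The second sum was at -0.0343 with RLE size factors and -0.0336 with DESeq2 for the day 16 control. Over all models, the 16 libraries alone gave 1909 calls in place of 1072 for A83-01, 4360 in place of 2773 for CHIR99021 and 1707 in place of 767 for BACL control against BACL LB GPiPSC. Leaving out a library of either group took the last of these counts from 767 to between 172 and 263. On log2(TPM + 1), 82.3% of the calls between control and stage I day 8 were higher, against 53.2% by counts, and 50.6% against 65.2% for BACL control against BACL LB GPiPSC. Depth limits only values near the floor.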
